A study of Mus musculus with 6 samples.

Results

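The genes described here are 43 genes of DNA replication and of the passage from G1 into S phase, measured in whole mouse retina with and without oxygen-induced retinopathy (OIR). They were chosen by name, from what is known of their proteins, but with earlier results of these data known. Each matched exactly 1 of the 54532 gene IDs of the deposited count table. A cell that is about to divide first loads the MCM helicase onto its origins of replication (the origin recognition complex, Cdc6 and Cdt1 do this), then turns the helicase on with Cdc45 and the GINS complex, and copies both strands with primase, the polymerases, the PCNA clamp and its loader. Cyclin D and cyclin E with their kinases release the E2F transcription factors from the retinoblastoma protein, and E2F factors in turn raise the transcription of most of these genes. Neurons of the retina leave the cell cycle before the age studied, whereas cells of growing vessels and activated microglia can divide. Several of the proteins, among them replication protein A and replication factor C, also serve DNA repair, so their transcripts are not limited to dividing cells.

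All samples were retina of C57BL/6J mice labelled wild type, at postnatal day 17, sequenced as total RNA. Normal retina and OIR retina had 3 samples each. In the OIR model young mice are kept in high oxygen, which stops and prunes retinal vessels, and the return to room air leaves the tissue short of oxygen and is followed by disordered vessel growth. Neither the oxygen schedule nor whether each sample was a separate animal is stated in the labels, so the p-values reflect only how far these samples differ, which may in part be technical. The stated purpose of the series was a search for targets tied to vessel growth under low oxygen. In whole tissue, more cells of a type and more RNA per cell cannot be told apart.

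Depth was 15818168 to 17163513 counts per library, and 17108 genes were tested. Levels are given in CPM, each count taken relative to its library's total after edgeR's TMM scaling. Rhodopsin and 8 other rod markers, which define retina, summed to 46193 to 49595 CPM in normal and 37669 to 42043 CPM in OIR libraries. Xist and Y-linked genes marked Normal 1, Normal 3 and OIR 2 as male. Lens transcripts differed widely within groups: the sum of 8 crystallin and other lens genes was 7.55 to 300.5 CPM in normal libraries, 69.1 CPM in OIR 1, 307 CPM in OIR 2 and 4959.6 CPM in OIR 3.

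Of the 43 replication and G1/S genes, 9 were higher in OIR retina and 1 was lower (edgeR quasi-likelihood test, Benjamini-Hochberg adjusted p under 0.05). All 43 had enough counts to be tested. Over all genes tested 11.1% were higher, 8.73% lower and 19.8% either, against 20.9%, 2.33% and, for either, 10 genes of the 43. The genes that rose were Uhrf1, Mcm3, Rrm2, Ccnd1, E2f1, Gins2, Mcm6, Cdt1 and Mcm4, and the one that fell was Rpa1. The median log2 change of the 43 was 0.31, or 1.24-fold, against 0.01 over all genes, and 36 of the 43 had a value above 0. For 20 of them every OIR library lay above every normal library and for 1 every OIR library lay below, whereas 18.7% and 18.1% of all genes tested (36.8% in all) did so. Without Normal 3 the test called 5 genes higher (Mcm3, Mcm6, Uhrf1, Ccnd1 and E2f1), and those are also the 5 that rose at an adjusted p under 0.01. At least 2-fold was reached by 7 of the 9, and the 33 that did not pass had log2 changes from −0.27 to 0.91.

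**Figure D1:**
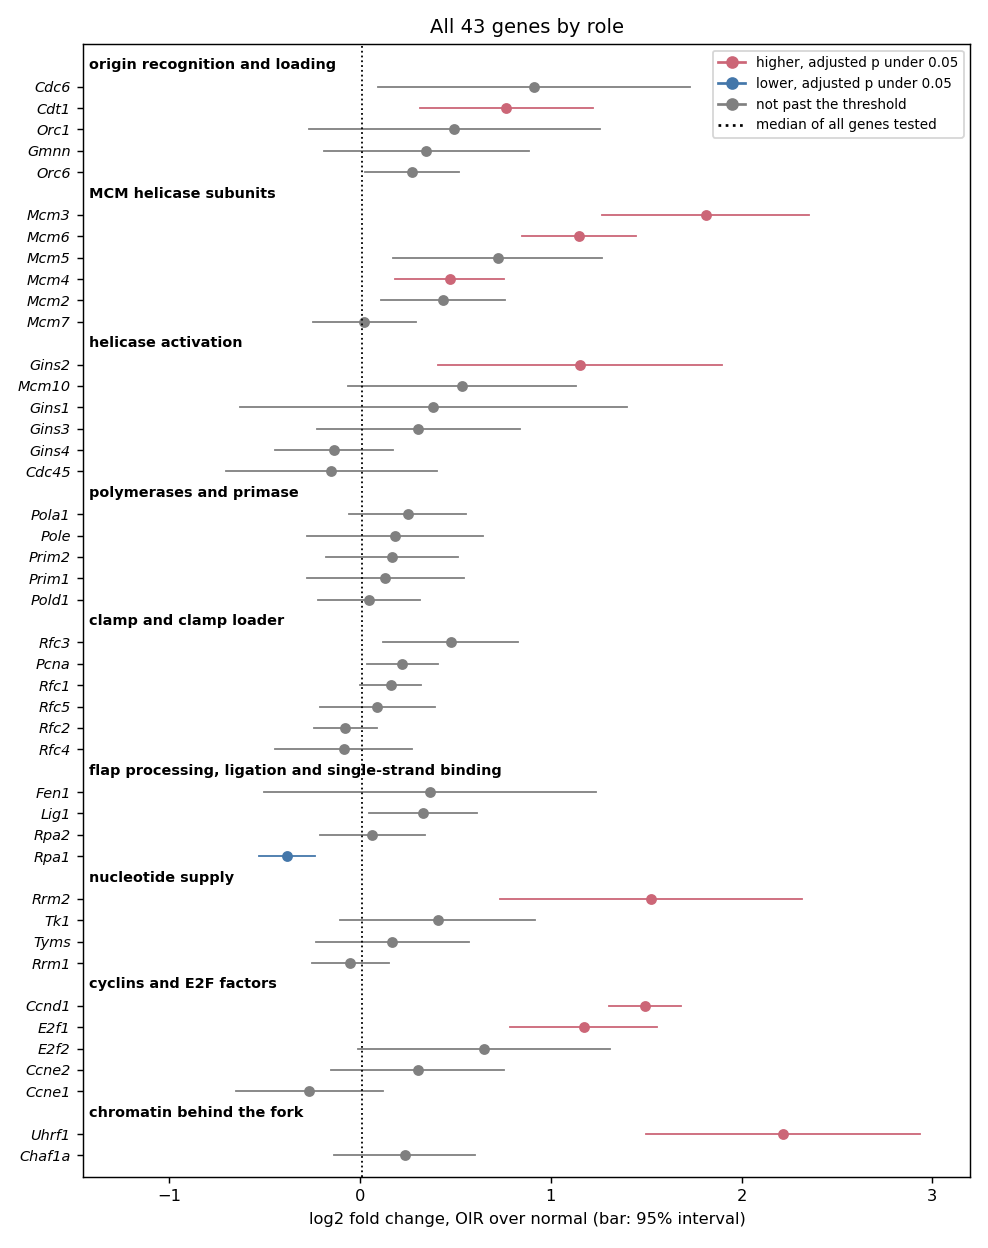
Log2 fold change (OIR over normal) of each of the 43 genes, grouped by role, with its 95% interval from edgeR's quasi-likelihood fit to 3 normal and 3 OIR libraries. Red points rose, the blue point (Rpa1) fell, grey points did not pass, and the dotted line is the median of all genes tested (0.01).

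Promoters are shown first, because E2F factors are known regulators of many of these genes. RefSeq promoter sequences (build GRCm38.p6, 250 bases before to 50 after a start site) were found for 33 of the 43 genes; Ccnd1, Ccne2, Gins1, Gins2, Gins4, Gmnn, Mcm4, Pole, Prim2 and Rfc2 had no entry. The E2F letters TTTCCCGC, TTTCGCGC, TTTGCCGC and TTTGGCGC, searched on both strands with overlapping matches joined, stood in at least 1 promoter of 14 of the 33 genes (42.4%), against 2.61% of all 27025 genes with an entry and 4.44% of the 11996 tested genes with one. Among the 6 genes that rose and had an entry, 4 held the letters: Mcm3, Mcm6, Cdt1 and Uhrf1. In the 26 genes with an entry that did not pass the test, 10 held them. A separate list of other fork and origin genes held them in 9 of 29 (31.0%). A match describes these letters only and does not show that a factor binds there. The stretches that hold them in the 4 genes that rose, written 5′ to 3′ on the gene's own strand with the E2F letters in capitals, are these:
Mcm6, minus strand, chr1:128359780-128359839, far match: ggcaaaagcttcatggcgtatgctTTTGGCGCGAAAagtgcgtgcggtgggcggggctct
Mcm6, minus strand, chr1:128359719-128359778, near match: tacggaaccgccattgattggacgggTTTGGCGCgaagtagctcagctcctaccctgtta
Mcm3, minus strand, chr1:20820266-20820295: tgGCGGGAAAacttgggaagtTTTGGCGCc
Cdt1, plus strand, chr8:122568035-122568064: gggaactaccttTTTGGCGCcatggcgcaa
Uhrf1, plus strand, chr17:56304102-56304161: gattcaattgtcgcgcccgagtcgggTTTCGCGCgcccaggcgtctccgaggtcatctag

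The far match of Mcm6 lay 110 to 99 bases before the start site and is a joined run in which E2F letters overlap on both strands, and its near match lay 47 to 40 bases before it. In Mcm3 the pair of matches lay between 20 and 46 bases after the start site, in Cdt1 the match lay 33 to 40 bases after it, and in Uhrf1 it lay 185 to 178 bases before the start site of 1 of 2 listed promoters. Matches of the same kind stood before or at the start sites of genes that did not pass the test. For comparison, 3 such genes are shown, Mcm5 and Orc1 with one match each and Rfc3 with a pair:
Mcm5, plus strand, chr8:75109332-75109391: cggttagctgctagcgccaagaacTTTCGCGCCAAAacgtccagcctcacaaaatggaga
Orc1, plus strand, chr4:108579394-108579453: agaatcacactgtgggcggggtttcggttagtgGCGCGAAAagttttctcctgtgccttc
Rfc3, minus strand, chr5:151651195-151651224: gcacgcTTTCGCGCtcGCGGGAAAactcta
The CHR letters TTTGAA and TTCGAA, found in promoters of many genes of mitosis, stood in 7 of the 33 genes (21.2%), against 21.7% of all genes and 15.8% of tested genes with an entry, whereas 12 of 16 mitosis genes with an entry held them and 1 of the 16 held the E2F letters. The NF-Y letters CCAAT stood in 22 of the 33 (66.7%), against 41.1% of all genes and 42.4% of tested genes.

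Of the 5 genes of origin recognition and loading among the 43, 1 passed the test (20%, near the 19.8% of all genes tested). Cdt1 (ENSMUSG00000006585, chromosome 8, 122568015 to 122573554, mm10), which brings the helicase to origins, had 3.60, 2.62 and 3.09 CPM in the normal libraries and 4.66, 5.66 and 5.52 CPM in the OIR libraries. Every OIR value was above every normal one, and Cdt1 rose 1.70-fold (log2 change 0.77, standard error 0.205, edgeR adjusted p of 0.0236). This call was lost without Normal 2, Normal 3, OIR 2 or OIR 3 (edgeR adjusted p up to 0.0920). Cdc6, its partner in loading, had 35 counts in the 3 normal and 69 in the 3 OIR libraries, and its log2 change of 0.91 (95% interval 0.09 to 1.73) did not pass (edgeR adjusted p of 0.114). Orc1 and Orc6, subunits of the origin recognition complex, had log2 changes of 0.50 and 0.27 and did not pass, and Orc1 also shares 10.8% of its exonic bases with a gene on the other strand. Gmnn, which encodes geminin, the inhibitor that holds Cdt1 in check after S phase begins, had 0.35 (−0.19 to 0.88). The ratio of Cdt1 to Gmnn counts was 1.05 to 1.16 in normal and 1.11, 1.68 and 1.77 in OIR libraries, and these overlapped (exact two-sided permutation p of 0.3).

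The 6 MCM genes encode the 6 subunits of the replicative helicase, which enters DNA as a ring of one copy each. Mcm3 (ENSMUSG00000041859, chromosome 1, 20802968 to 20820312) had 2.58, 2.37 and 1.35 CPM in normal and 7.19, 6.55 and 8.52 CPM in OIR libraries. It rose 3.51-fold, with a log2 change of 1.81, a standard error of 0.245 and an edgeR adjusted p of 0.000544. Mcm6 (ENSMUSG00000026355, chromosome 1, 128331590 to 128359664) had 8.45, 7.66 and 7.91 CPM in normal and 17.2, 15.7 and 20.3 CPM in OIR libraries. The OIR values were about double the normal ones, a 2.22-fold rise with a standard error of 0.136 on the log2 scale and an edgeR adjusted p of 0.000218. For Mcm6 alone, permuting the sample labels exactly (two-sided) gave p = 0.1, which is the lowest value possible with 3 against 3. Mcm4 rose 1.39-fold from 13.7 ± 1.22 to 19.1 ± 2.28 CPM (SD, n = 3; edgeR adjusted p of 0.0269), a call lost without Normal 2, Normal 3, OIR 1 or OIR 2 (edgeR adjusted p up to 0.116).

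The other 3 MCM genes did not pass the test. Mcm5 had 5.33, 3.41 and 3.41 CPM in normal and 8.66, 6.13 and 5.29 CPM in OIR libraries, so that OIR 3 lay just below Normal 1. Its log2 change was 0.72 (0.18 to 1.27, edgeR adjusted p of 0.0656), and it passed with DESeq2, with no filter on low counts, with the replicate number as a block, without Normal 1 and without OIR 3. Mcm2 had groups that did not overlap, a log2 change of 0.44 and an edgeR adjusted p of 0.0625. Mcm7 had 18.9, 16.1 and 19.9 CPM in normal and 20.4, 17.3 and 18.1 CPM in OIR libraries, which overlap. Its log2 change was 0.02 with a 95% interval of −0.25 to 0.29, so a rise of the size seen for Mcm3 or Mcm6 lay outside that interval. Mcm7 shares exons with Ap4m1 and Cops6 on the other strand, over 7.25% and 1.45% of its exonic bases.

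Per kilobase of annotated exon, the lowest and highest of the 6 subunits lay closer together in OIR than in normal retina, in large part through Mcm3. In the normal libraries Mcm3 was the lowest, at 0.360 to 0.687 CPM per kb, and Mcm7 the highest, at 3.64 to 4.50 CPM per kb, a ratio of 6.21, 5.76 and 12.5. In the OIR libraries the lowest was Mcm2 or Mcm5, at 1.32 to 1.64 CPM per kb, and the highest was Mcm4, at 4.63 to 5.90 CPM per kb, a ratio of 3.59, 3.52 and 3.50. The normal ratios rest on Mcm3, with 43, 39 and 21 counts in the normal libraries, so the narrower range in large part restates its rise. The next lowest in normal retina was Mcm5, at a mean of 1.01 CPM per kb. Mcm3 itself went from 0.560 to 1.98 CPM per kb and Mcm6 from 1.72 to 3.81 CPM per kb. The exon length counts every annotated exon of a gene, so a per-kilobase level depends on which isoforms the retina uses. The log2 ratio of Mcm3 to Mcm7 counts within a library went from −3.17 ± 0.617 to −1.33 ± 0.217 (SD, n = 3), with groups that did not overlap (exact two-sided permutation p of 0.1, 0.125 adjusted over the 5 ratios computed, which were chosen after the values were seen).

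**Figure D2:**
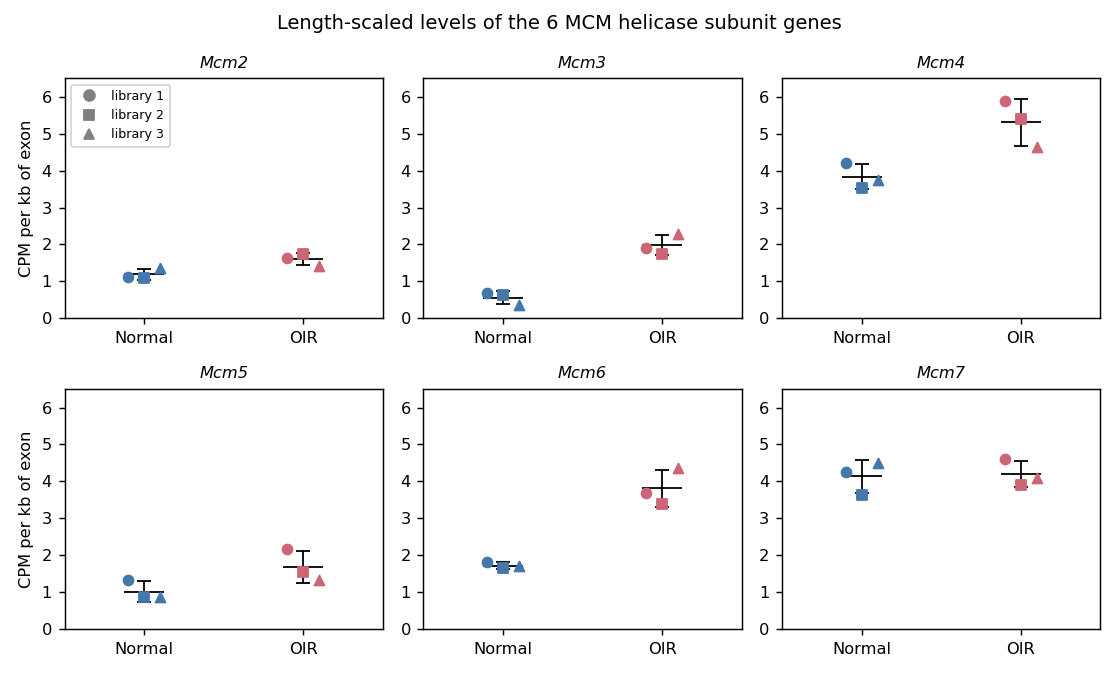
CPM per kilobase of annotated exon for the 6 MCM helicase subunit genes in each library, with 3 normal (blue) and 3 OIR (red) libraries per panel, the mean as a line and the SD as bars. Mcm3 and Mcm6 are well above their normal values in every OIR library, whereas the Mcm7 values of the groups overlap.

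Of the 6 genes that turn the loaded helicase on, 1 rose (16.7%, beside 11.1% of all genes tested). Gins2, a subunit of the 4-part GINS complex, had 1.14, 1.40 and 0.772 CPM in normal and 2.00, 2.12 and 3.29 CPM in OIR libraries. It rose 2.23-fold (log2 standard error 0.337, edgeR adjusted p of 0.035). That call rests on 54 normal and 126 OIR counts and was lost when any library other than Normal 2 was left out, with the replicate block and with sex as a covariate (edgeR adjusted p up to 0.136). Gins2 also shares 67.3% of its exonic bases with Gse1 on the other strand, which had 14044 counts and a log2 change of −0.05 that did not pass. Gins1, Gins3 and Gins4 had log2 changes of 0.38, 0.31 and −0.14 and did not pass. The log2 ratio of Gins2 to Gins4 counts, also chosen after the values were seen, went from −3.60 ± 0.480 to −2.29 ± 0.252 (SD, n = 3). Its exact two-sided permutation p was 0.1, or 0.125 adjusted over the 5 ratios. Gins4 was the most abundant of the 4 per length, at 9.65 CPM per kb in normal retina, against 0.269 CPM per kb for Gins2. The Gins2 figure is divided by its full exon length, including the bases shared with Gse1, where reads may not be counted for Gins2. Cdc45, the partner of GINS in the moving helicase, had 202 counts in normal and 190 in OIR libraries, with a log2 change of −0.15 (−0.70 to 0.40). Mcm10, which helps the activated helicase open DNA, had 0.54 (−0.06 to 1.13). Neither passed.

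None of the 11 genes of the polymerases, primase, clamp or clamp loader passed the test with edgeR, DESeq2 or limma-voom, and 3 had an unadjusted edgeR p under 0.05. Pola1, Prim1 and Prim2, of the complex that makes the starting primers, had log2 changes of 0.25, 0.13 and 0.17, and the leading and lagging strand polymerase genes Pole and Pold1 had 0.19 and 0.05. The 95% interval of Pold1 was −0.22 to 0.31. Pcna, which encodes the sliding clamp and is widely used as a proliferation marker, had 55.1, 56.6 and 51.8 CPM in normal and 61.9, 59.3 and 69.7 CPM in OIR libraries. All 3 OIR values were above the normal ones, but by a log2 change of 0.22 (0.04 to 0.41), which did not pass (edgeR adjusted p of 0.0897) and did pass with library totals alone. Per kilobase Pcna stood at 22.7 CPM per kb in normal retina, below Rpa1 alone among the 43 genes, and at 26.5 CPM per kb in OIR retina, above all the others. Its copy Pcna-ps2 held 68 counts in all, against 5899 for Pcna.

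The clamp loader genes had log2 changes from −0.09 to 0.47. Rfc3 had 5.81, 6.99 and 6.82 CPM in normal and 10.5, 8.14 and 8.64 CPM in OIR libraries, with groups that did not overlap, a log2 change of 0.47 and an edgeR adjusted p of 0.0614. Rfc1 had 0.16, Rfc5 had 0.09, Rfc2 had −0.08 and Rfc4 had −0.09, all short of the threshold. The 95% interval of Rfc2 was −0.24 to 0.09. Rfc4 shares 12.7% of its exonic bases with Eif4a2 on the other strand, whose counts were far higher (40419 against 556).

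Replication protein A, which coats the single strands that the helicase exposes, gave the one fall. Rpa1 (ENSMUSG00000000751, chromosome 11, 75298166 to 75348324), its large subunit, had 184, 181 and 183 CPM in normal and 136, 134 and 150.0 CPM in OIR libraries. The groups did not overlap, and Rpa1 fell by 0.38 on the log2 scale (standard error 0.0663, edgeR adjusted p of 0.00243), a call that held in all 15 alternatives. Per kilobase it was the most abundant of the 43 genes in normal retina, at 32.8 CPM per kb, and came after Pcna in OIR retina, at 25.1 CPM per kb. Rpa2, the middle subunit, had a log2 change of 0.06 (−0.21 to 0.34). Over the same libraries 4 of 9 rod marker genes fell and none rose, with a median log2 change of −0.19; their part in the fall of Rpa1 was not tested. Fen1, which trims the flaps of lagging strand fragments, and Lig1, which joins the fragments, had log2 changes of 0.37 (−0.50 to 1.24) and 0.33 (0.05 to 0.61) and did not pass. Fen1 shares 78.8% of its exonic bases with an overlapping transcript on the other strand, and it held 49 counts in normal and 66 in OIR libraries.

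Among the genes that supply deoxynucleotides, the regulated subunit of ribonucleotide reductase stood out. Rrm2 (ENSMUSG00000020649, chromosome 12, 24708241 to 24714146) had 1.08, 0.547 and 0.707 CPM in normal and 2.77, 1.65 and 2.35 CPM in OIR libraries. In all, Rrm2 held only 38 counts in the normal and 115 in the OIR libraries. It rose 2.88-fold, with a standard error of 0.359 on the log2 scale and an edgeR adjusted p of 0.0128, and did not pass without Normal 3 or without OIR 1 (edgeR adjusted p up to 0.0667). Rrm1, the large subunit of the same enzyme, had 37.7, 32.1 and 37.6 CPM in normal and 36.2, 32.4 and 35.0 CPM in OIR libraries. These overlap almost fully, with a log2 change of −0.05 (−0.25 to 0.15). The log2 ratio of Rrm2 to Rrm1 counts went from −5.58 ± 0.397 to −3.97 ± 0.298 (SD, n = 3). Every OIR library lay above every normal one (exact two-sided permutation p of 0.1, 0.125 adjusted over the 5 ratios). This ratio was chosen after the values were seen, so it restates the rise of Rrm2 and is not a separate test. Tyms and Tk1, which make thymidine nucleotides, had log2 changes of 0.17 and 0.41 and did not pass, although both had groups that did not overlap.

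Cyclin D1 had the smallest p of the 43 genes. Ccnd1 (ENSMUSG00000070348, chromosome 7, 144929931 to 144939925), the cyclin that couples growth signals to the exit from G1, had 24.4, 23.6 and 22.6 CPM in normal and 62.6, 73.0 and 63.7 CPM in OIR libraries. It rose 2.82-fold, with a log2 change of 1.495, a standard error of 0.0859 and an edgeR adjusted p of 1.83e-06. The gene on the other strand that shares 23.4% of its exonic bases, listed as LTO1 in the reference, had a log2 change of 0.17 and did not pass. E2f1 (ENSMUSG00000027490, chromosome 2, 154559407 to 154569892), a transcription factor that activates S phase genes, had 3.18, 3.04 and 2.96 CPM in normal and 7.49, 6.43 and 6.82 CPM in OIR libraries. Its values were tight in both groups, and it rose 2.26-fold (log2 standard error 0.174, edgeR adjusted p of 0.000976). E2f2, its close relative, had groups that did not overlap but only 57 and 94 counts, and a log2 change of 0.65 (−0.01 to 1.31) that did not pass.

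The E cyclins, which act after cyclin D at the start of S phase, did not pass. Ccne1 had 6.77, 6.39 and 5.53 CPM in normal and 5.36, 4.48 and 5.70 CPM in OIR libraries, a log2 change of −0.27 (−0.65 to 0.12). Ccne2 had 0.30 (−0.15 to 0.76), and 17.4% of its exonic bases are shared with Ints8 on the other strand. The log2 ratio of Ccnd1 to Ccne1 counts went from 1.92 ± 0.0963 in normal to 3.68 ± 0.297 in OIR libraries (SD, n = 3). Its exact two-sided permutation p was 0.1, or 0.125 adjusted over the 5 ratios. It was also chosen after the values were seen and restates the rise of Ccnd1.

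Uhrf1 had the largest fold change of the 43 genes. It encodes a protein that recognises newly copied, half-methylated DNA and brings in the maintenance methyltransferase. Uhrf1 (ENSMUSG00000001228, chromosome 17, 56303321 to 56323486) had 0.719, 0.973 and 1.03 CPM in normal and 5.66, 4.19 and 2.88 CPM in OIR libraries. All OIR values were well above the normal ones, but they spread 1.97-fold among themselves. It rose 4.66-fold (log2 change 2.22, standard error 0.324, edgeR adjusted p of 0.000876). Chaf1a, the large subunit of the factor that places histones behind the fork, had a log2 change of 0.23 (−0.13 to 0.60) and did not pass, and it shares 52.5% of its exonic bases with Ubxn6 on the other strand.

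**Figure D3:**
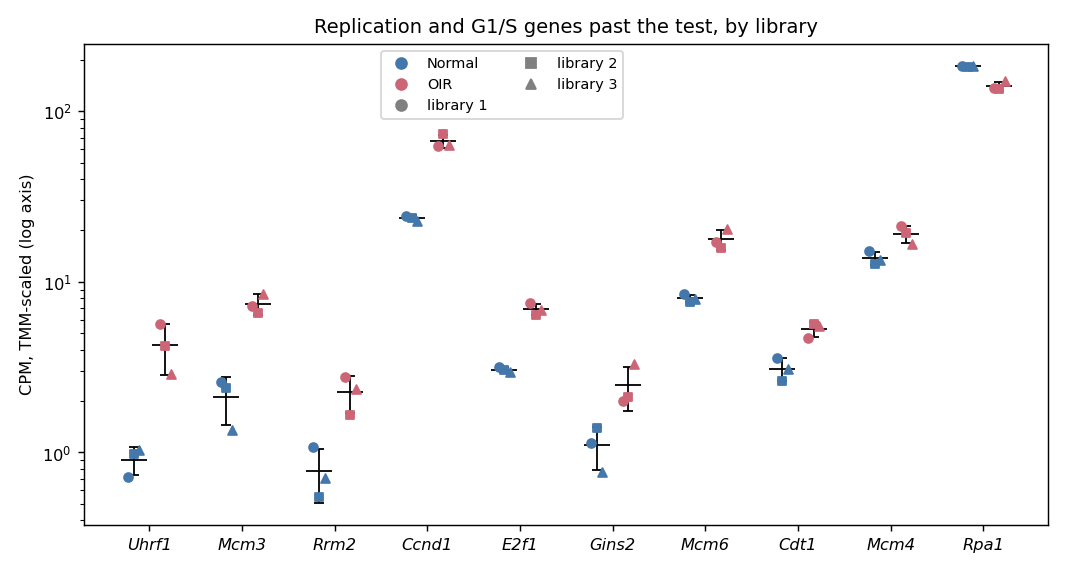
CPM (TMM-scaled, log axis) of the 10 genes past the test in each of 3 normal (blue) and 3 OIR (red) libraries, ordered by fold change, with the mean as a line and the SD as bars. The groups do not overlap for any of the 10 genes; Uhrf1 is highest in OIR 1 and Ccnd1 in OIR 2.

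Of the 9 genes that rose, 6 had a mean below 5 CPM over all libraries, a value chosen after the levels were seen. Split there, 6 of 18 genes below it rose and none fell, and 3 of 25 genes at or above it rose and 1 fell. E2f1 (3.06 CPM in normal, 6.91 CPM in OIR retina) and Mcm3 (2.10 and 7.42 CPM) lay just below it. Mcm5 (4.05 and 6.69 CPM), which did not pass, lay just above, so these counts depend on where the split is set. Over all genes tested the share that rose was 11.1% on both sides of that level, whereas the share that fell was 2.09% below it and 11.2% at or above it. The median log2 change was 0.52 below it and 0.17 at or above it for the 43 genes, against 0.15 and −0.0084 for all genes. The rising genes had a median of 3.06 CPM in normal retina and the genes that did not pass one of 6.54 CPM.

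Related genes from lists chosen for their known roles, also with earlier results of these data known, gave the setting. Of 32 tested further genes of origins and forks, 4 rose (12.5%, near the 11.1% of all genes tested) and none fell (median log2 change 0.15): Clspn, a checkpoint adaptor at the fork, rose 2.94-fold, Dbf4, the partner of the kinase that fires origins, 2.00-fold, Pola2 1.46-fold and Ticrr, which loads Cdc45, 3.40-fold, with edgeR adjusted p from 0.0122 to 0.0269. This count was 1 without Normal 3, without OIR 1 and without OIR 2. Clspn passed in every fit that left out a library, whereas Dbf4 (edgeR adjusted p up to 0.0741), Pola2 (up to 0.0927, also lost without Normal 1) and Ticrr (up to 0.119, also lost without Normal 2 and OIR 3) did not pass without those 3 libraries. Pola2 was also lost with sex as a covariate, and Ticrr with DESeq2, with no filter and with the replicate block. Of 13 further nucleotide supply genes 1 rose (7.69%, below the share of all genes), the deaminase gene Dctd (1.81-fold, edgeR adjusted p of 0.0384), and that call was lost in 8 alternatives, among them DESeq2 and 5 of the 6 fits that leave out a library (all but that without Normal 2), with adjusted p up to 0.168. None of the 13 fell, but 2 did without Normal 2 and 1 without OIR 3. Of 16 tested genes of chromatin and checkpoints 3 rose (18.8%, beside 11.1% of all genes tested) and none fell. They were Asf1b (2.38-fold), Ung (2.30-fold) and Chaf1b (3.70-fold), and the count was 1 without Normal 3 and 5 without Normal 2. Ung did not pass without Normal 3 (edgeR adjusted p of 0.0507), nor Chaf1b without Normal 1, Normal 3 or OIR 1 or with the replicate block (up to 0.124). Among 24 other G1/S regulators 10 rose and none fell (median log2 change 0.29), 6 rose without Normal 3, and 1 fell without Normal 1. Among them Ccnd2 rose 2.39-fold from 13.4 ± 1.87 to 31.9 ± 2.30 CPM, Cdk2 2.14-fold, Cdk4 1.40-fold and Myc 3.84-fold from 1.48 ± 0.656 to 5.69 ± 0.797 CPM (SD, n = 3), with edgeR adjusted p from 6.51e-05 to 0.00297.

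Inhibitors of the cyclin-dependent kinases rose over the same libraries. Cdkn1a, which encodes p21, had 6.60 ± 0.394 CPM in normal and 29.3 ± 5.52 CPM in OIR retina (SD, n = 3), a 4.44-fold rise with an edgeR adjusted p of 7.89e-06. Cdkn2c, an inhibitor of Cdk4 and Cdk6, rose 2.04-fold and Cdkn1b, which encodes p27, 1.19-fold. Cdkn1b did not pass with sex as a covariate, nor without Normal 3, OIR 1, OIR 2 or OIR 3 (edgeR adjusted p up to 0.0893). Cdkn2b, Cdkn2d and Cdkn1c had log2 changes of 0.93, 0.21 and −0.05 and did not pass, and Cdkn2a, with 3 and 23 counts, was too low to be tested. The mitosis genes had larger changes than the replication genes: 13 of 20 rose and none fell (median log2 change 1.52, beside 0.31 for the 43). Mki67 rose 22.1-fold from 0.434 ± 0.117 to 9.70 ± 4.12 CPM, Top2a 8.93-fold, Cdk1 5.86-fold, Cdc20 5.44-fold and Ccnb1 3.66-fold (SD, n = 3; edgeR adjusted p from 1.98e-05 to 0.00626). The difference between these lists was not tested, and they differ in level. Mki67, Top2a, Cdk1, Cdc20 and Ccnb1 had only 21, 47, 34, 31 and 22 counts summed over the normal libraries. The 43 genes had a median of 6.23 CPM in normal retina.

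**Figure D4:**
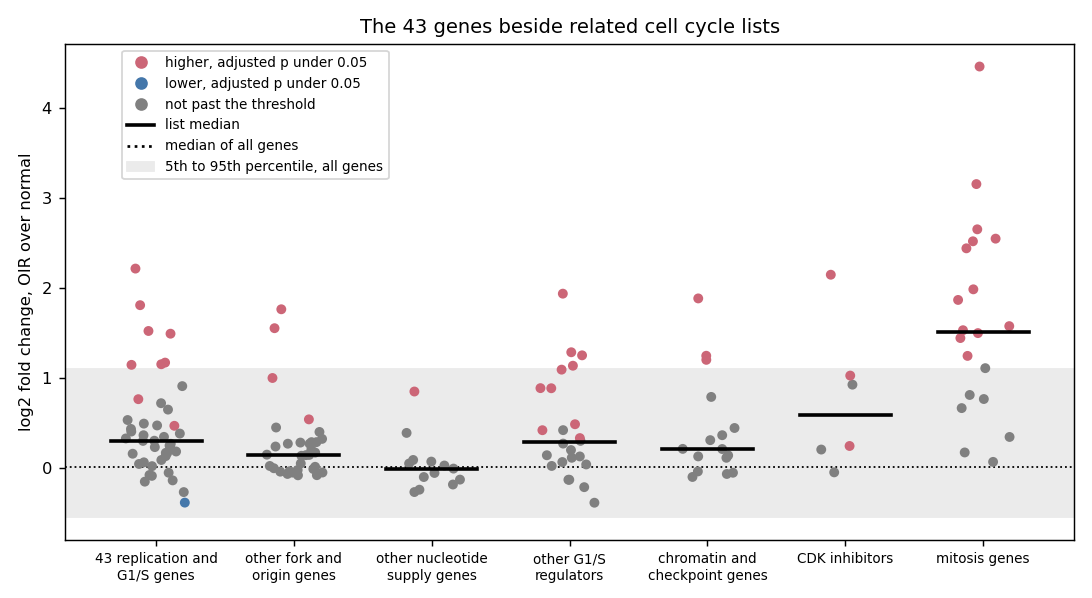
Log2 fold change (OIR over normal) of each tested gene in the 43 replication and G1/S genes and in 6 related lists, with the list median as a black line, the median of all genes tested as a dotted line and the 5th to 95th percentile of all genes (−0.55 to 1.10) in grey. The median is 0.31 for the 43 genes and 1.52 for the mitosis genes.

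The 3 OIR libraries did not hold these transcripts equally. OIR 1 had the highest value of the 3 for 24 of the 43 genes, OIR 3 for 15 and OIR 2 for 4, and OIR 2 had the lowest for 24. The median log2 ratio to the normal mean over the 43 genes was 0.47 in OIR 1, 0.27 in OIR 3 and 0.15 in OIR 2. Summed mitosis genes followed the same order, with 117, 96.8 and 83.4 CPM in OIR 1, OIR 3 and OIR 2, against 45.6 to 49.99 CPM in normal libraries. Ccnd1 went the other way and was highest in OIR 2. OIR 2 was the male OIR library, and with sex as a covariate 8 of the 43 rose and the median log2 change was 0.22. Within a sex, as a description with 1 library in an arm, 29 of the 43 genes were higher in OIR and 14 lower among male libraries (2 normal, 1 OIR), with a median log2 difference of 0.15, and 38 were higher and 5 lower among female libraries (1 normal, 2 OIR), with a median of 0.25.

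Markers of cell types that can divide, and erythroid genes, also had higher sums in OIR retina. Their order among the OIR libraries differed between lists, and their part in the result was not tested. Microglia and macrophage markers rose for 10 of 14 genes, and their sum was 77.6 to 93.0 CPM in normal libraries and 203, 150.2 and 179 CPM in OIR 1, OIR 2 and OIR 3, the same order as the mitosis genes. Endothelial markers rose for 12 of 16 genes and fell for 1, with sums of 592 to 679 CPM in normal libraries. They summed to 990.0, 927 and 1009 CPM in OIR 1, OIR 2 and OIR 3, highest in OIR 3, unlike the mitosis genes. Mural cell markers rose for 9 of 10 genes, from 272 to 315 CPM to 756 to 873 CPM, and were highest in OIR 2. Stromal fibroblast markers rose for 4 of 6 tested, from 53.6 to 59.1 CPM in normal libraries. They summed to 139, 122 and 136 CPM in OIR 1, OIR 2 and OIR 3, also the order of the mitosis genes. Pdgfra, the gene of this list with the highest level, is also counted among the astrocyte markers that rose. The other stromal genes that rose were collagen genes. Erythroid genes rose for 4 of 5 tested, with Slc4a1 at 0 counts in the normal libraries. Their sum was 60.3 to 90.3 CPM in normal libraries. In OIR 1, OIR 2 and OIR 3 it was 194, 210.1 and 176 CPM, highest in OIR 2. Any link between these orders was not tested.

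Other marker lists did not rise as a whole. Astrocyte markers rose for 3 of 8 and fell for 2; their sum was 248 to 249 CPM in normal and 428 to 495 CPM in OIR libraries, but without Gfap, a glial filament gene, it was 225 to 228 CPM in normal and 195 to 221 CPM in OIR libraries. Müller glia markers rose for 3 of 13 and fell for 5, with sums of 5186 to 6050.0 CPM in normal and 4570 to 5329 CPM in OIR libraries, and genes of retinal progenitors rose for 2 of 8 tested and fell for 3. Oligodendrocyte lineage markers gave 0 calls over 5 tested with edgeR (2 at an unadjusted p under 0.05) and 1 each with DESeq2 and limma-voom. Olig2 had 0 counts in every library. Olig1, too low to be tested, had 1, 1 and 0 counts in normal and 7, 27 and 14 in OIR libraries. Pigment epithelium markers fell for 5 of 8, from 212 to 357 CPM to 119 to 141 CPM. Lens markers, at their highest in OIR 3, gave 0 calls over 8 with edgeR (6 at an unadjusted p under 0.05) and 0 with limma-voom and with DESeq2 (which gave no adjusted p for 2 of them), and without OIR 3 the count of rising replication and G1/S genes was 8 and the median log2 change 0.26.

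**Figure D5:**
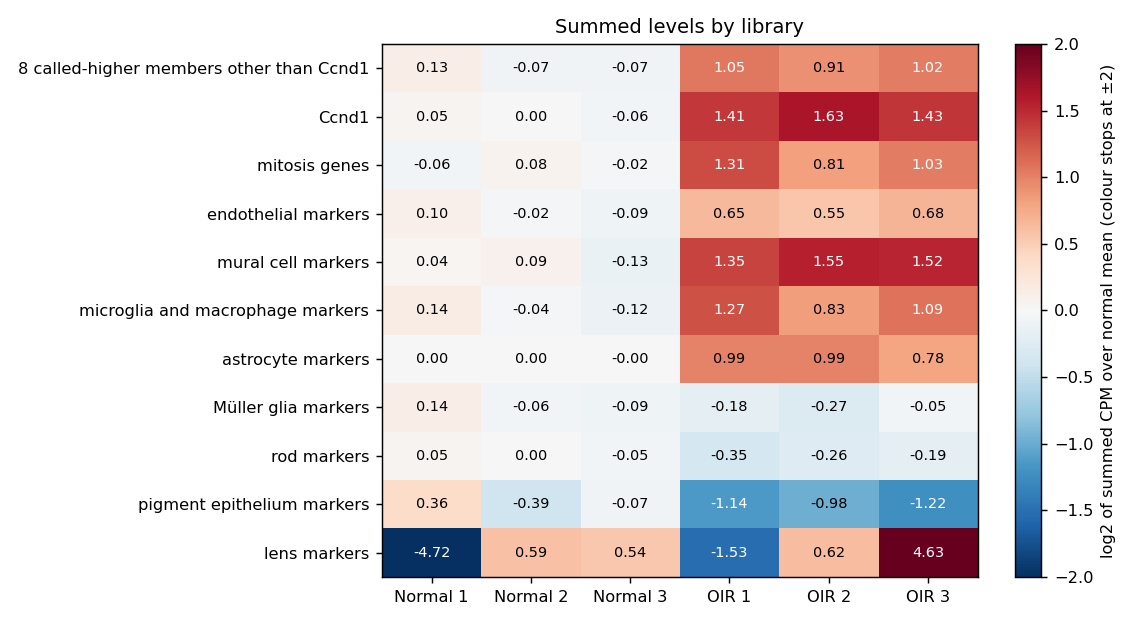
Log2 ratio of the summed CPM in each library to the mean of the normal libraries, for the 8 rising genes other than Ccnd1, for Ccnd1, for mitosis genes and for cell type markers. Numbers give the ratio and colour stops at ±2; the 8 genes are 0.91 to 1.05 in OIR libraries, and the lens row runs from −4.72 in Normal 1 to 4.63 in OIR 3.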

How the data were processed

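RNA of 6 retina samples was sequenced after TRIzol isolation and NEBNext Ultra library preparation, per the labels' protocols; that kit in its standard form does not mark strand, so reads of overlapping genes on opposite strands cannot be told apart. The authors deposited raw counts per gene; the build mm10 and the tools featureCounts 1.5.0-p3, HISAT2 2.0.5, fastp, DESeq2 1.20.0 and CASAVA 1.8 are named in the submitters' processing notes. No source used here gives the annotation release, strand setting or read filters. Gene length and position are other columns of the deposited table, and all 43 genes had the same start and end in GENCODE vM21. Columns were assigned by name: those without OIR went to the normal samples of the same day and number.

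The deposited counts were tested with edgeR 4.0.16 (R 4.3.3; glmQLFit, glmQLFTest) with TMM scaling, filterByExpr (minimum count 10, total 15) and no covariate, on all 6 libraries, and p-values were adjusted by Benjamini-Hochberg over 17108 genes. CPM is computed over the counts of genes kept, and standard errors are the log2 change divided by the square root of F. No pair of libraries within a group was close enough to be a duplicate (chi-square over degrees of freedom 7.20 to 23.1). Scripts were tested on simulated counts. Alternatives were DESeq2 1.42.0, limma-voom (limma 3.58.1), other scalings and filters, the replicate number as a block, sex as a covariate, each library left out, and the stricter threshold of 0.01. The 43 genes, the lists and the alternatives were chosen with earlier results of these data known. The genes named are all 43 and, per related list, up to 4 with the smallest adjusted p and any that fell. All inhibitors, Mki67, Top2a, Cdk1 and Ccnb1 are also named, and genes that share exons with some of the 43. On the other strand, Rfc2 also shares 15.1% of its exonic bases with Lat2, and Rfc5 10.7% with Wsb2. Orc6 shares 6.93% with Vps35, Cdc45 5.96% with Ufd1 and Lig1 5.79% with Zswim9. Smaller overlaps are not all given. Cell type marker lists are given by sums and counts, with a few genes named.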

Additional observations from a re-analysis of the deposited data

How the results depend on the processing

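Of the 10 calls among the 43 genes, 6 held in all 15 alternatives (Uhrf1, Mcm3, Mcm6, Ccnd1, E2f1 and Rpa1), and Mcm4, Cdt1, Gins2 and Rrm2 lost theirs in 3 to 8. The number of genes that rose was 9 and became 5 at an adjusted p under 0.01; leaving out 1 library gave 5 to 9, and the other alternatives 8 to 12. Rpa1 alone fell in every alternative. The median log2 change was 0.22 to 0.36. Under an alternative only, 4 genes passed: Mcm2, Pcna and Rfc3 with library totals alone, which move the median of all genes to 0.06, and Mcm5. For 8 genes that had not passed, all among the 43 except the inhibitor gene Cdkn1c, the direction turned when 1 library was left out. Log2 changes over those fits were −0.064 to 0.086 for Mcm7 (lower without Normal 2 or OIR 1). They were −0.0057 to 0.16 for Rfc5 and −0.023 to 0.14 for Rpa2 (without Normal 3). For Fen1 they were −0.0074 to 0.60 and for Pold1 −0.010 to 0.12 (without OIR 1). For Cdc45 they were −0.42 to 0.0027 and for Prim1 −0.042 to 0.24 (without OIR 3). Cdkn1c had −0.37 to 0.086 (without Normal 1, OIR 1 or OIR 2). The cause was not tested. With the replicate number as a block 9 genes rose and 1 fell, with a median log2 change of 0.30. Deviations from the group mean had correlations of 0.06, −0.16 and 0.07 for same-numbered libraries and −0.18 to 0.098 for differently numbered ones. With so few libraries per group, these values cannot decide whether the numbers pair the samples, which the labels do not state. Depth limits genes such as Gins1, Cdc6 and Fen1, with under 100 counts per group.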
